A study of Mus musculus with 6 samples.

Results

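The miR-10, miR-99/100 and miR-125 families are 3 related groups of microRNAs, short RNAs that guide Argonaute proteins to messenger RNAs and lower the output of those messengers. Their members were chosen by name, with earlier results of these data known, as the mouse-named assays, star strands left out, for miR-10a, miR-10b, miR-99a, miR-99b, miR-100 and both arms of miR-125a and miR-125b. The rule found 9 of the 345 microRNA assays with a normalised value. All were read by quantitative RT-PCR with SYBR Green in CD8+ pMel-1 T cells of the mouse, whose transgenic T cell receptor recognises the melanocyte antigen gp100. DC-primed cells (3 samples) had been activated for 3 days in vitro with bone marrow-derived dendritic cells matured with LPS, a bacterial cell wall component. B cell-primed cells (3 samples) had been activated for the same time with splenic B cells carrying the gp100 peptide hgp100(25-33). Each of 3 rounds gave 1 sample of each kind. The labels do not say whether the dendritic cells also carried the peptide, whether the priming cells were removed before RNA was extracted, or whether rounds came from separate animals, so the p-values below cover only the spread between these samples. No unprimed T cells were analysed here.

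A microRNA finds its targets mainly through its seed, the short stretch near its 5′ end, so members with the same seed share many predicted targets. The miR-10 genes lie in the Hox clusters, and miR-10a is known in mouse T cells from regulatory T cells. The miR-99/100 family is known for repressing mTOR, the kinase that couples T cell receptor and growth factor signals to growth. miR-125b is known in human CD4+ T cells for holding naive cells back from effector differentiation, and miR-125a and miR-125b are both known from blood stem cells and myeloid cells. The miR-99/100 and miR-125 genes lie together with let-7 genes in clusters that were copied during evolution.

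The mature sequences are shown because they set both the grouping and the limits of the assays. They are RefSeq's for mouse build GRCm38.p6, matched by name for 8 of the 9 members, written 5′ to 3′ with the seed (bases 2 to 8) in capitals. The files themselves name no genome build.
mmu-miR-10a: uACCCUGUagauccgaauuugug
mmu-miR-10b: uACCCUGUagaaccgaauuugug
mmu-miR-99a: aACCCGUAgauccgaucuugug
mmu-miR-99b: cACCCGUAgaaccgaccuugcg
mmu-miR-100: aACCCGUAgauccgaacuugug
mmu-miR-125a-5p: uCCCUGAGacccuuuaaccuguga
mmu-miR-125b-5p: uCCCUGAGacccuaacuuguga
mmu-miR-125a-3p: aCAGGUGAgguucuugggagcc

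Seed ACCCUGU was shared by miR-10a and miR-10b, seed ACCCGUA by miR-99a, miR-99b and miR-100, and seed CCCUGAG by miR-125a-5p and miR-125b-5p. miR-10a and miR-10b differ by 1 base, U12A, counted from 1 at the 5′ end with miR-10a first. miR-99a and miR-100 also differ by 1 base, U16A. miR-99b differs from miR-99a by 4 bases, A1C, U11A, U16C and U21C. miR-125a-5p and miR-125b-5p are 3 edits apart, and so are miR-10a and miR-100, although the seeds of miR-10a and miR-100 differ. Each assay used a forward primer for its microRNA and a common reverse primer, so close members can share signal. How much each primer read its neighbour was not tested. miR-351, which is no member, has the same seed as the miR-125 5p arms and was measured too. miR-125b-3p was not matched to a sequence.

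By RefSeq's annotation of GRCm38.p6, all these mature sequences lie on the plus strand. miR-10a is at chr11:96317186-96317208 within the span of Hoxb3, and miR-10b is at chr2:74726074-74726096 within the spans of Hoxd3 and Hoxd4, homeobox genes that pattern the body axis. miR-99b (chr17:17830194-17830215) and miR-125a-5p (chr17:17830817-17830840) lie with let-7e in a stretch of 692 bases within the span of Spaca6. miR-100 (chr9:41531437-41531458) lies in the noncoding host gene Mir100hg with let-7a-2 and the first of 2 hairpins of miR-125b, Mir125b-1 (chr9:41581940-41581961), over 50578 bases. miR-99a (chr16:77598940-77598961) lies with let-7c-1 and the other hairpin, Mir125b-2 (chr16:77646279-77646300), over 47408 bases, and no annotated gene spans Mir99a or Mir125b-2. The miR-125b-5p assay therefore reads the product of 2 loci at once.

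Values are given as levels, which are minus the authors' dCt: a step of 1 unit is 2-fold, and a higher level is more microRNA relative to the other microRNAs of that sample. The threshold cycle (Ct) is the raw reading, in which a lower number is more template. DC-primed sample 3 stood apart, with 280 assays below a Ct of 35, against 337 and 327 in DC-primed samples 1 and 2 and 336 to 341 among B cell-primed samples. Over the 274 assays with a Ct below 35 in all 6 samples, which were the ones tested, its mean Ct was 30.5, against 26.3 and 28.4 in DC-primed samples 1 and 2 and 26.4 to 27.6 in B cell-primed samples. Of the 9 members, 7 passed that filter. miR-99a did not pass because of DC-primed sample 3, where its Ct was 37.29, and miR-125b-3p was above 35 in all 6 samples.

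Of the 7 tested members, miR-100, miR-99b, miR-125a-5p and miR-10a had higher mean levels in DC-primed cells, by 2.00 to 2.61 units. In each of these 4 DC-primed sample 1 was highest, DC-primed sample 2 lay between, and DC-primed sample 3 was within 0.74 units of the B cell-primed sample of its round. The untested miR-125b-3p also differed by 2.46 units, on readings past the Ct filter and with another order of samples. miR-10b, miR-125a-3p and miR-125b-5p differed by less than 1 unit between the groups. No member passed the test: limma with Benjamini-Hochberg adjustment over 274 assays called 0 of the 7 tested members and 0 of the 274 assays (0%), the smallest adjusted p of all being 0.228, with 24 assays at an unadjusted p under 0.05. Read against these counts, the differences below are sizes with wide intervals and not established changes.

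**Figure D1:**
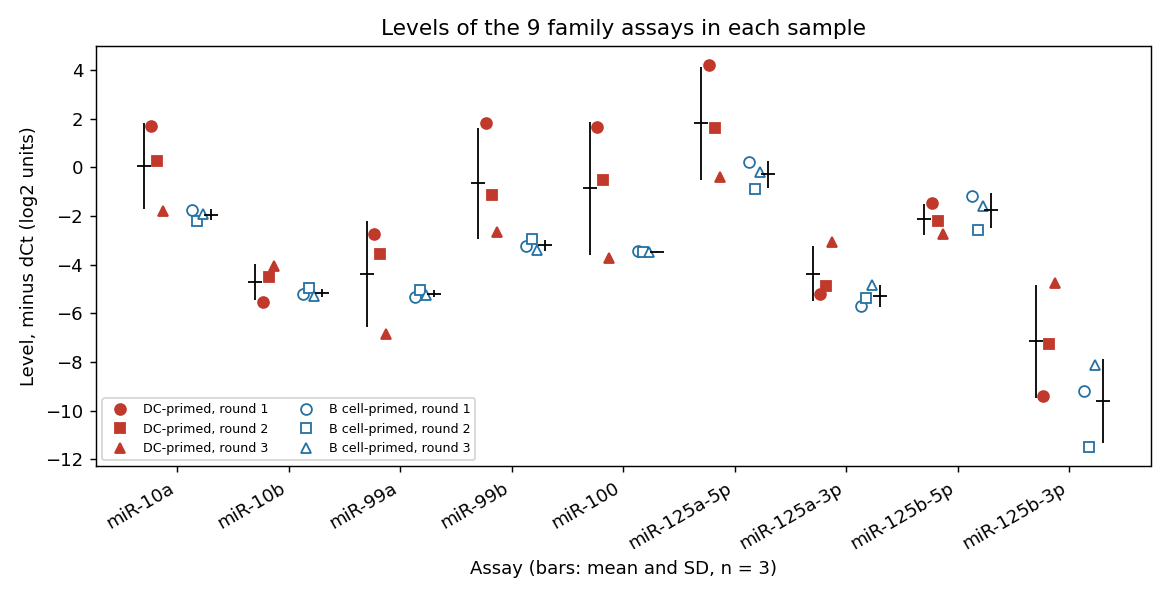
Levels (minus dCt, log2 units, vertical axis) of the 9 family assays in each sample, DC-primed to the left of B cell-primed, with the mean and SD of each group (n = 3) and a marker shape for each round. DC-primed points of miR-10a, miR-99b, miR-100 and miR-125a-5p spread over 3.52 to 5.41 units, B cell-primed points over 0.04 to 1.10.

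Among the 3 members with the miR-99/100 seed, mmu-miR-100 had the largest difference. Its levels were 1.66, -0.53 and -3.74 in DC-primed samples 1, 2 and 3, against -3.46, -3.50 and -3.48 in B cell-primed samples 1, 2 and 3. DC-primed samples 1 and 2 were above all B cell-primed samples and DC-primed sample 3 was below all of them, so the groups overlapped. The raw Ct values were 24.52, 28.99 and 34.2 in DC-primed samples, against 29.81, 30.62 and 31.11 in B cell-primed samples. The mean level was -0.87 ± 2.72 in DC-primed cells and -3.48 ± 0.02 in B cell-primed cells (mean ± SD of 3 samples), so nearly all of the spread was among DC-primed samples. The difference was 2.61 units, or 6.09-fold (95% interval -0.19 to 5.40, limma adjusted p = 0.582), and by round it was 5.12, 2.97 and -0.26. Without DC-primed sample 3 it was 4.04, and with the Ct filter over the 5 samples left limma called it (adjusted p = 0.042). That was 1 of 8 members tested there, against 4 of 319 assays called as higher (1.25%). Without DC-primed sample 1 the difference was 1.34.

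mmu-miR-99b, which lies in the chromosome 17 cluster, had levels of 1.82, -1.13 and -2.66 in DC-primed samples, against -3.25, -2.95 and -3.40 in B cell-primed samples. Every DC-primed level was above every B cell-primed level, the gap being smallest for DC-primed sample 3. It was the 1 tested member of 7 whose groups did not overlap in this direction, while 15 of 274 assays (5.47%) did so. On raw Ct (24.36, 29.59 and 33.12 in DC-primed cells, against 29.6, 30.07 and 31.03 in B cell-primed cells) the groups did overlap. The mean was -0.66 ± 2.28 in DC-primed cells and -3.20 ± 0.23 in B cell-primed cells (mean ± SD of 3 samples). The difference of 2.54 units, 5.81-fold, had a 95% interval of 0.076 to 5.004 and a limma p of 0.0447 before and 0.532 after adjustment. It was the 1 member of 7 at an unadjusted p under 0.05 and higher, against 4 of 274 assays (1.46%). By round, miR-99b differed by 5.07, 1.82 and 0.74 units, and without DC-primed sample 1 the difference was 1.30.

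mmu-miR-99a, a single base from miR-100, had levels of -2.74, -3.56 and -6.83 in DC-primed samples, against -5.32, -5.03 and -5.24 in B cell-primed samples. DC-primed samples 1 and 2 were again highest, and DC-primed sample 3, read at a Ct past the filter, was lowest of all 6. The mean was -4.38 ± 2.17 in DC-primed cells and -5.19 ± 0.15 in B cell-primed cells (mean ± SD of 3 samples), a difference of 0.82 that was not tested in the main setting. Without DC-primed sample 3 it was 2.04 and was not called by limma (adjusted p = 0.234).

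The miR-10 members share a seed but did not have the same profile. mmu-miR-10a, from the Hoxb cluster, had levels of 1.70, 0.26 and -1.81 in DC-primed samples, against -1.76, -2.19 and -1.90 in B cell-primed samples. DC-primed samples 1 and 2 were above all B cell-primed samples, while DC-primed sample 3 lay among them. The mean was 0.05 ± 1.77 in DC-primed cells and -1.95 ± 0.22 in B cell-primed cells (mean ± SD of 3 samples). The difference was 2.00 units, 3.99-fold (95% interval -0.10 to 4.09, limma adjusted p = 0.563), and 3.46, 2.45 and 0.09 by round. Without DC-primed sample 1 it was 1.17.

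mmu-miR-10b, from the Hoxd cluster, was read late, at Ct 31.73 to 34.53 in DC-primed cells and 31.55 to 32.93 in B cell-primed cells. Its levels were -5.55, -4.51 and -4.07 in DC-primed samples, against -5.20, -4.97 and -5.30 in B cell-primed samples. Here the level of DC-primed sample 1 was the lowest of the 6 and that of DC-primed sample 3 the highest. Among DC-primed samples alone, the order was the reverse of that of miR-10a. On raw Ct, DC-primed sample 3 instead had the latest reading, at 34.53. The difference of 0.44 units had a 95% interval of -1.08 to 1.97 (limma adjusted p = 0.978), which covers differences in either direction. It was 0.86 without DC-primed sample 1 and 0.12 without DC-primed sample 3.

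The miR-125 5p arms share a seed as well. mmu-miR-125a-5p, from the same cluster as miR-99b, had levels of 4.20, 1.60 and -0.39 in DC-primed samples, against 0.22, -0.88 and -0.19 in B cell-primed samples. DC-primed samples 1 and 2 were above all B cell-primed samples, and DC-primed sample 3 was above B cell-primed sample 2 and below the other 2. The mean was 1.80 ± 2.30 in DC-primed cells and -0.28 ± 0.56 in B cell-primed cells (mean ± SD of 3 samples). The difference was 2.08 units, 4.24-fold (95% interval -0.44 to 4.61, limma adjusted p = 0.707), and 3.98, 2.48 and -0.20 by round. It was 0.88 without DC-primed sample 1 and 3.18 without DC-primed sample 3.

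mmu-miR-125b-5p, the sum of the chromosome 9 and chromosome 16 hairpins, was the 1 member of 9 with a lower mean in DC-primed cells. Its levels were -1.47, -2.21 and -2.75 in DC-primed samples, against -1.17, -2.58 and -1.58 in B cell-primed samples. The groups overlapped, and DC-primed sample 3 was the lowest of the 6. The mean was -2.14 ± 0.65 in DC-primed cells and -1.77 ± 0.72 in B cell-primed cells (mean ± SD of 3 samples). The difference of -0.37 (95% interval -1.99 to 1.24, limma adjusted p = 0.986) was smaller than either SD and had the opposite sign in round 2, at 0.37. Leaving out 1 sample at a time gave -0.77 (without B cell-primed sample 2) to -0.07 (without DC-primed sample 3 or without B cell-primed sample 1). miR-351, the other assay with this seed, had levels of -2.83, -3.62 and -2.30 in DC-primed samples, against -2.36, -3.33 and -2.85 in B cell-primed samples, and a difference of -0.07.

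The 3p arms, cut from the other side of the miR-125 hairpins, were near the detection limit. mmu-miR-125a-3p had levels of -5.19, -4.86 and -3.08 in DC-primed samples, against -5.71, -5.36 and -4.82 in B cell-primed samples. Its level was higher in DC-primed cells in each round, and DC-primed sample 3 was the highest of all 6. The raw Ct values were 31.37, 33.32 and 33.54 in DC-primed samples, against 32.06, 32.48 and 32.45 in B cell-primed samples. On raw Ct, DC-primed sample 3 thus had the latest reading, and the DC-primed reading was the earlier one in round 1 only. The difference in level was 0.92 units (95% interval -0.83 to 2.66, limma adjusted p = 0.961), and 0.27 without DC-primed sample 3. mmu-miR-125b-3p had Ct values of 35.59, 35.73 and 35.22 in DC-primed samples, against 35.54, 38.63 and 35.77 in B cell-primed samples. Its levels were -9.41, -7.27 and -4.76 in DC-primed samples, against -9.19, -11.51 and -8.14 in B cell-primed samples. The raw DC-primed readings thus hardly differed while the levels spanned 4.64 units, since the normaliser differed between samples. It was not tested in the main setting. Without a filter the difference of 2.46 was not called by limma (adjusted p = 0.700, and 0.467 with the round as a block).

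Counted together, 4 of the 7 tested members had a difference of 1 unit or more, against 46 of 274 assays (16.8%). A difference above 0 was found in 6 of 7 members and in 146 of 274 assays (53.3%). 3 of the 7, miR-10a, miR-99b and miR-125a-3p, were higher in DC-primed cells in all 3 rounds, as were 35 of 274 assays (12.8%). The median difference was 2.00 over the 7 tested members and 0.07 over all assays tested. miR-100, miR-99b, miR-125a-5p and miR-10a ranked 4, 5, 7 and 8 of 274 from the largest difference down. Over all 9 members, the median by round was 2.58, 1.82 and 0.09, against -0.27, 0.45 and -0.03 for all assays tested. The SD was larger among DC-primed samples in 6 of 7 members, as in 218 of 274 assays (79.6%). With the round as a replicate block, which pairs the samples as the authors' own test does, 4 of 7 members (miR-99b, miR-100, miR-125a-5p and miR-10a) had an unadjusted limma p under 0.05 and were higher, against 12 of 274 assays (4.38%). None was called after adjustment, with limma adjusted p of 0.213 for miR-99b, 0.229 for miR-100 and 0.316 for both miR-125a-5p and miR-10a. In the authors' deposited table, the paired p-values of the 9 members ran from 0.155 for miR-125a-3p to 0.580 for miR-99a.

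**Figure D2:**
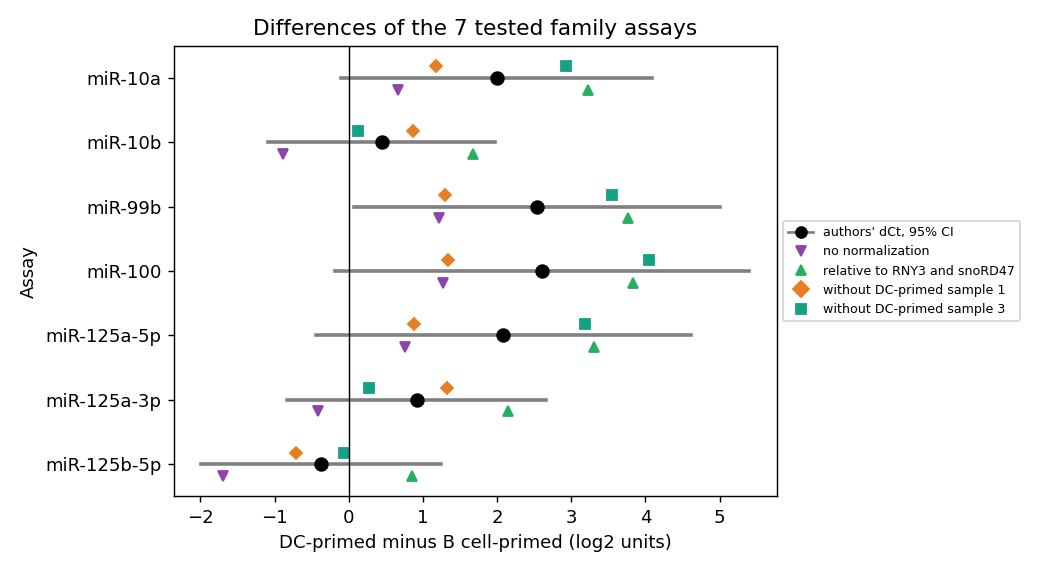
DC-primed minus B cell-primed level (log2 units, horizontal axis) for the 7 tested members, with limma's 95% interval and the values under 4 other settings. miR-99b, miR-100, miR-10a and miR-125a-5p lie above 0 in each setting drawn, from 0.67 (miR-10a without normalization) to 4.04 (miR-100 without DC-primed sample 3), while miR-10b, miR-125a-3p and miR-125b-5p lie on both sides of 0.

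The order of the levels depends also on how well each primer pair amplifies, so it describes the assays. In DC-primed cells it was miR-125a-5p, miR-10a, miR-99b, miR-100, miR-125b-5p, miR-125a-3p, miR-99a, miR-10b and miR-125b-3p. Among these neighbours, only the gaps below miR-125b-5p (2.23 units) and below miR-10b (2.44 units) exceeded the larger SD of the 2 assays. In B cell-primed cells it was miR-125a-5p, miR-125b-5p, miR-10a, miR-99b, miR-100, miR-10b, miR-99a, miR-125a-3p and miR-125b-3p. There the gaps of 0.17 between miR-125b-5p and miR-10a, 0.04 between miR-10b and miR-99a, and 0.10 between miR-99a and miR-125a-3p were within the spread, and the others exceeded it. miR-125a-5p was the member with the highest mean in each group, 62nd of 345 assays in DC-primed cells and 135th in B cell-primed cells. By sample it ranked 39, 69 and 132 in DC-primed cells, against 110, 155 and 138 in B cell-primed cells. miR-125b-5p, the second in B cell-primed cells, ranked 213th in DC-primed cells and 197th in B cell-primed cells.

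Differences between 2 assays of the same sample do not depend on the sample's normaliser, and 18 such pairs were compared by two-sided exact permutation of 3 samples against 3, where the smallest possible p is 0.1. Of these, 14 were pairs of tested assays, and in 3 of the 14 the groups did not overlap, against 5329 of the 37401 pairs that the tested assays form (14.2%). Of the 4 pairs with miR-99a or miR-125b-3p, 2 did not overlap. Each of these 5 had an exact p of 0.1 and an adjusted p of 0.36. The pairs share members, so their results are not independent of each other.

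Within the miR-125 family, miR-125a-5p minus miR-125b-5p was 5.67, 3.81 and 2.36 in DC-primed samples, against 1.39, 1.70 and 1.39 in B cell-primed samples. All 3 DC-primed values were higher, and the difference of 2.45 had an exact p of 0.1 (adjusted 0.36), and was 1.59 without DC-primed sample 1. Both 5p arms have the same seed, so the balance within that seed was further towards miR-125a-5p in each DC-primed sample. Within the miR-99/100 seed, miR-99b minus miR-100 was 0.16, -0.60 and 1.08 in DC-primed samples, against 0.21, 0.55 and 0.08 in B cell-primed samples. These overlapped, with a difference of -0.07 (exact p = 0.9), although miR-99b and miR-100 are on different chromosomes. miR-99a minus miR-100 was -4.40, -3.03 and -3.09 in DC-primed samples, against -1.86, -1.53 and -1.76 in B cell-primed samples. miR-99a was thus further below miR-100 in each DC-primed sample than in any B cell-primed sample, by 1.79 units on average (exact p = 0.1, adjusted 0.36), despite the single base between them. Against miR-99b it was lower by 1.72 on average, also without overlap (exact p = 0.1, adjusted 0.36). miR-10a minus miR-10b was 7.25, 4.77 and 2.26 in DC-primed samples, against 3.44, 2.78 and 3.40 in B cell-primed samples, and these overlapped (difference 1.55, exact p = 0.4). That difference was 0.31 without DC-primed sample 1 and 2.80 without DC-primed sample 3.

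miR-99b minus miR-125a-5p, from the chromosome 17 cluster, was -2.38, -2.73 and -2.27 in DC-primed samples, against -3.47, -2.07 and -3.21 in B cell-primed samples. miR-99b was thus below miR-125a-5p in all 6 samples, with an SD of the distance of 0.24 in DC-primed cells and 0.74 in B cell-primed cells. The groups overlapped (difference 0.46, exact p = 0.4), and leaving out B cell-primed sample 1 gave a difference of 0.18, leaving out B cell-primed sample 2 one of 0.88. let-7e, which lies between them in the genome and belongs to the let-7 family known for opposing growth and self-renewal, had levels of 3.38, 4.89 and 5.33 in DC-primed samples, against 3.95, 3.82 and 3.90 in B cell-primed samples. Its lowest level was in DC-primed sample 1, where miR-99b and miR-125a-5p had their highest. On raw Ct, let-7e instead had its latest reading in DC-primed sample 3, at 25.13. Its raw Ct was 22.8 in DC-primed sample 1, against 22.4 to 23.73 in B cell-primed samples. let-7e minus miR-125a-5p was accordingly -0.82, 3.29 and 5.72 in DC-primed samples, against 3.73, 4.70 and 4.09 in B cell-primed samples (difference -1.44, exact p = 0.7, and 0.33 without DC-primed sample 1). miR-100 minus miR-125b-5p, from the chromosome 9 cluster, was 3.13, 1.68 and -0.99 in DC-primed samples, against -2.29, -0.92 and -1.90 in B cell-primed samples. DC-primed sample 3 was just below the highest B cell-primed sample, and the difference was 2.98 (exact p = 0.2, adjusted 0.4). miR-99b minus miR-125b-5p did not overlap, at 3.29, 1.08 and 0.09 in DC-primed samples, against -2.08, -0.37 and -1.82 in B cell-primed samples (difference 2.91, exact p = 0.1, adjusted 0.36). let-7c minus miR-125b-5p, which share the chromosome 16 cluster, was 5.93, 7.42 and 5.95 in DC-primed samples, against 4.83, 5.39 and 3.61 in B cell-primed samples (difference 1.82, exact p = 0.1, adjusted 0.36).

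**Figure D3:**
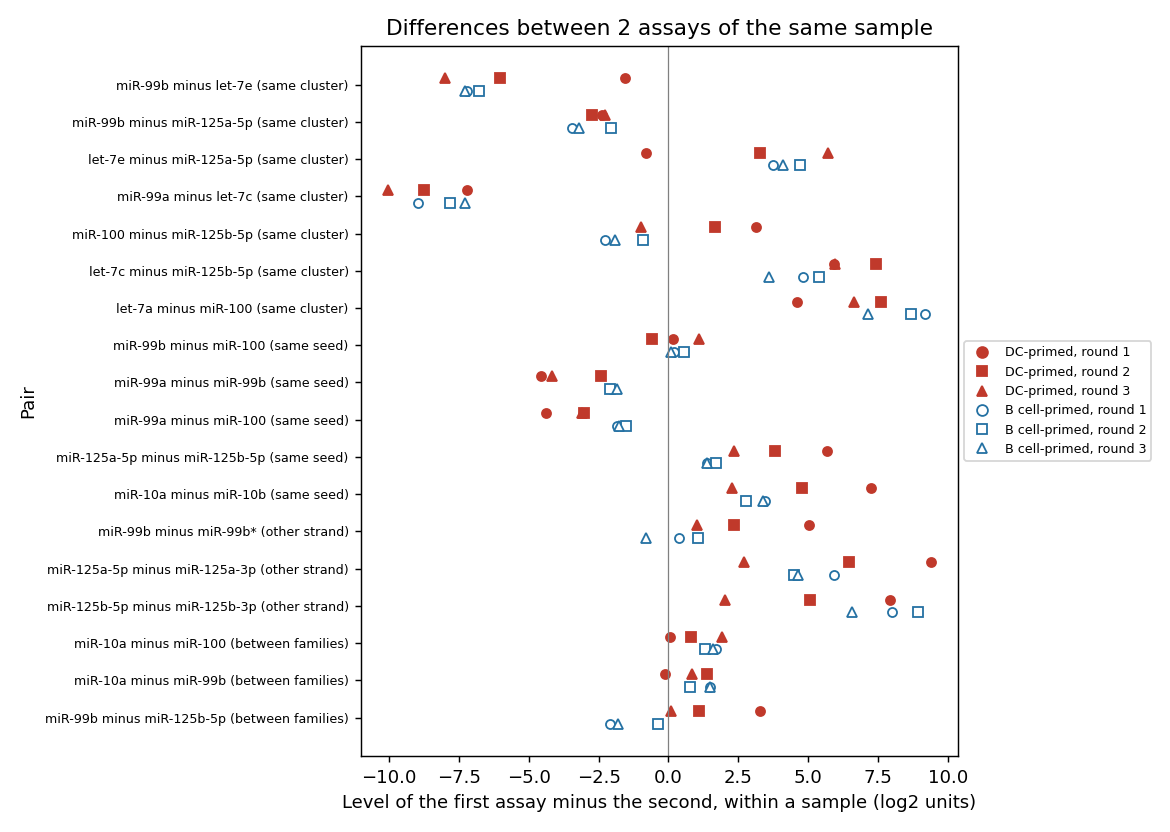
Level of 1 assay minus another within each sample (log2 units, horizontal axis) for the 18 pairs, DC-primed samples drawn above B cell-primed samples in each row, with a marker shape for each round. DC-primed and B cell-primed values do not overlap in 5 pairs, among them miR-125a-5p minus miR-125b-5p (2.36 to 5.67 in DC-primed samples, 1.39 to 1.70 in B cell-primed samples).

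Of the let-7 assays listed as cluster partners, let-7e, let-7c, let-7a and let-7a*, all 4 were tested, 4 had a difference above 0 and 0 were called, with a median of 0.60 units. let-7c had the largest, 1.45 (limma adjusted p = 0.707). let-7a and let-7c are also made from other loci, which these assays do not tell apart. The let-7a* assay was not traced to a hairpin, so it may not belong to these clusters. miR-99b*, the other strand of the miR-99b hairpin, had levels of -3.22, -3.46 and -3.67 in DC-primed samples, against -3.61, -4.02 and -2.59 in B cell-primed samples. Its SD was 0.23 in DC-primed cells and 0.74 in B cell-primed cells, and its difference was -0.05, while miR-99b minus miR-99b* differed by 2.59 (exact p = 0.2, adjusted 0.4), and by 1.46 without DC-primed sample 1. miR-125a-5p minus miR-125a-3p differed by 1.17 (exact p = 0.6), and by -0.44 without DC-primed sample 1. The other microRNAs of the Hox clusters, miR-196a and miR-196b (both human-named assays), miR-615-3p and miR-615-5p, had differences of -0.49, -0.03, -0.80 and -0.58. All 4 were below 0, 3 were tested and 0 were called, against a difference of 2.00 for miR-10a.

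The 6-sample profiles, each centred on its own mean, showed which assays moved most alike, measured as the root mean square distance in log2 units. Among miR-10a, miR-99b, miR-100 and miR-125a-5p, distances were 0.42 to 0.64. From these 4 to miR-125b-5p they were 1.39 to 1.96, and to miR-10b 1.65 to 2.27. All distances are over the same 6 samples, and no test was made. These 4 were set apart above by the same levels. Short distances among them, and longer ones to members of another profile, thus follow in part from that choice. The nearest tested assay outside the families was miR-22*, the lesser strand of the miR-22 hairpin, for miR-99b (0.43) and for miR-125a-5p (0.48), while the median distance over all assays was 2.15 and 2.05. For miR-100 it was miR-222 (0.69, median 2.32), known from activated lymphocytes and other proliferating cells. For miR-10a it was miR-150 (0.62, median 1.81), a microRNA of resting lymphocytes, with miR-22* next at 0.64. At rank 2 were miR-147, induced by Toll-like receptor signals in macrophages, for miR-99b (0.79), miR-22* for miR-100 (0.74) and miR-26a for miR-125a-5p (0.84). miR-181a, which tunes T cell receptor sensitivity in thymocytes, had rank 3 for miR-99b, miR-100 and miR-125a-5p (0.82 to 0.85). miR-10b was nearest to let-7e (0.23), miR-125a-3p to miR-433* (0.22) and miR-125b-5p to the human-named assay miR-23a* (0.29), with medians of 0.93, 1.07 and 1.15.

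**Figure D4:**
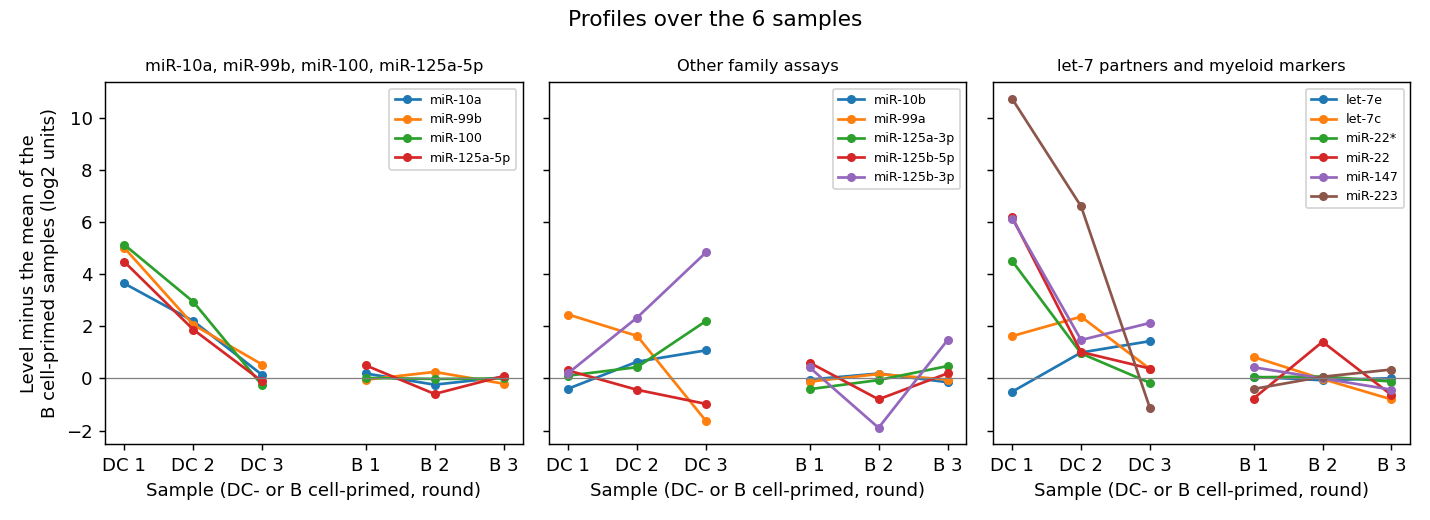
Levels of family members (left and middle panels) and of let-7 partners and myeloid markers (right panel) in each sample, as log2 units above the mean of the B cell-primed samples, with lines joining the values of 1 assay. In the left panel miR-10a, miR-99b, miR-100 and miR-125a-5p are highest in DC-primed sample 1 and near 0 in DC-primed sample 3, and miR-22, miR-147 and miR-223 are also highest in DC-primed sample 1.

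Markers of myeloid and dendritic cells were measured beside these 4 members, and miR-223, miR-22 and miR-146b had the same order among DC-primed samples. miR-147 and miR-142-3p did not, and some lymphocyte markers, given below, had this order too. All 5 measured (miR-223, miR-22, miR-147, miR-146b and miR-142-3p) had a difference above 0, with a median of 2.68 units, 2 were tested and 0 were called. miR-511 was not analysed here. The log2 of their summed levels was 7.19, 4.45 and 1.05 in DC-primed samples, against 0.30, 1.47 and -0.32 in B cell-primed samples, over the 4 assays without a filled-in value. The miR-142-3p level of DC-primed sample 3 was filled in by the authors, without a Ct reading. miR-223, the defining myeloid microRNA, was at 5.36, 1.23 and -6.53 in DC-primed samples, against -5.79, -5.32 and -5.04 in B cell-primed samples. It was therefore at high levels in DC-primed samples 1 and 2 and past a Ct of 35 in DC-primed sample 3 (36.99), while each of the 5 markers was below 35 in the other 5 samples. The part of these markers in the differences of miR-10a, miR-99b, miR-100 and miR-125a-5p was not tested. Some markers are shared between cell types: miR-142, with an arm on both the myeloid and the lymphocyte list, and miR-155 are found in lymphoid and myeloid cells. In such bulk RNA, fewer cells of a type and less RNA per cell cannot be told apart.

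Lymphocyte markers (miR-150, miR-181a, miR-181b, miR-142-5p and miR-155) were 5 of 5 above 0 with 0 called and a median of 1.07. Their summed level was 8.35, 8.57 and 5.05 in DC-primed samples, against 5.96, 6.80 and 6.27 in B cell-primed samples, lowest in DC-primed sample 3. Of these markers, miR-150, miR-181a and miR-142-5p had the same order among DC-primed samples as miR-10a, miR-99b, miR-100 and miR-125a-5p. miR-181b and miR-155 had another order. Stromal and endothelial markers were 3 of 7 above 0 and 4 of 7 below, with 4 tested and 0 called. The miR-199a-5p level of DC-primed sample 1 was filled in. Over the 6 assays without a filled-in value, summed levels were -0.98, 1.11 and 1.48 in DC-primed samples, against 0.28, 0.33 and 0.39 in B cell-primed samples. Erythroid markers were 2 of 3 above 0, with summed levels of -0.06, 1.35 and 2.40 in DC-primed samples, against 1.70, 1.22 and 2.09 in B cell-primed samples. The lymphocyte sum was highest in DC-primed sample 2, and the stromal and erythroid sums in DC-primed sample 3. How these lists relate to the family members was not tested.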

How the data were processed

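Total RNA was poly(A)-tailed, reverse-transcribed with a universal tag and amplified with SYBR Green, per the labels' protocols. Of the deposited tables, 1 gives raw Ct. The other gives, per the file headers, the authors' dCt (a log2 scale), which is Ct less the geometric mean over the sample, with a two-tailed paired p-value. A further deposited table gives the authors' fold change (a ratio, DC-primed on top). The file names are swapped relative to the headers, which the values follow. The authors filled in 10 missing Ct values, 0 of them in members. Ct minus 1 number per sample gave dCt within 0.02 cycles for all assays but 2, neither a member. How Ct was called is not given in the sources used here.

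The sign of dCt was turned. A two-sided moderated fit without block or trend (eBayes in limma 3.58.1, R 4.3.3; Benjamini-Hochberg adjustment, threshold 0.05) was run on the 274 of 345 assays with Ct below 35 in all 6 samples. Precision is limited by 3 samples a group. Samples were grouped by title, which gives the round. Rounds were taken as pairs in the block alternative because the authors' own test is paired. After the group means were removed, samples of the same round correlated at 0.16, 0.14 and 0.46. The correlation of DC-primed sample 1 with B cell-primed sample 2, from different rounds, was 0.33, above the values within rounds 1 and 2. Pairs of assays were compared by exact permutation with scipy 1.17.1.

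Every member is named. Other named microRNAs are other strands, let-7 cluster partners, Hox-cluster microRNAs, some of the 3 nearest profiles per tested member and cell type markers. miR-351 was added after values were seen. The members, lists and pairs were chosen with earlier results of these data known. Alternatives covered normalisation, detection limit, filled-in values, block, variance trend, assays in the test, the authors' paired test and leaving out samples or rounds. The fit was tested on simulated data. With the spread of these data, it called 0 of 40 assays given a true difference of 2 units and 28 of 40 given 4 units. A count of 0 called therefore does not show that differences of about 2 units are absent.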

Additional observations from a re-analysis of the deposited data

How the results depend on the processing

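The count of members called was 0 of 7 in the main setting and 0 in 29 of 30 alternatives, the replicate block among them. It was 0 to 1 when 1 sample was left out, the 1 being miR-100 without DC-primed sample 3 when the Ct filter ran over the 5 samples left. With the replicate block (paired rounds) the count was 0, also without a filter, a fit added after the data were seen. The differences of miR-10a, miR-99b, miR-100 and miR-125a-5p kept their sign under each alternative that gave them a value, over 0.67 to 3.22, 1.21 to 3.77, 1.28 to 4.04 and 0.75 to 3.31 units. Detection limit, filled-in values, block, variance trend and the assays in the test leave a member's difference unchanged. Only normalisation and leaving out samples or rounds could therefore change its sign. Those of miR-10b and miR-125a-3p turned to -0.89 and -0.41 without normalization, where the median of all tested assays was -1.26. That of miR-125b-5p turned to 0.86 relative to RNY3 and snoRD47, where that median was 1.30, and to 0.032 without round 3, also with the filter over the 4 samples left, an alternative added after the data were seen. The median of the tested members was 0.67 on raw Ct and 3.22 when set against RNY3 and snoRD47. A limit of Ct below 32 left miR-125a-5p as the 1 member tested. Of 198 contrast values under alternatives, 8 changed sign. Raw Ct and the block by round return the main value of each pair by construction. Only leaving out samples or rounds could therefore change the sign of a contrast. Leaving out 1 sample gave -2.94 to 0.33 for let-7e minus miR-125a-5p, -1.37 to 0.045 for miR-99a minus let-7c, -0.50 to 0.34 for miR-99b minus miR-100 and -0.44 to 2.91 for miR-125a-5p minus miR-125a-3p. Leaving out a round gave 0.11 for let-7e minus miR-125a-5p (round 1), 0.48 for miR-99b minus miR-100 (round 2) and 0.43 for miR-99a minus let-7c (round 3). The causes of these changes were not tested. Late Ct limits miR-10b, miR-99a and both 3p arms. In DC-primed sample 3 it also limits miR-100 (34.2), miR-125b-5p (33.21) and miR-99b (33.12).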
